A study of Mus musculus with 12 samples.

Results

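The genes described are the collagen chains of mouse periocular skin, taken as every gene of the count table whose symbol has the form Col, a number, a and a number, with at least 10 counts summed over 8 libraries. All 43 such genes of the 21247 genes in the table passed the minimum, and 20454 genes were tested in all. The RNA-seq set 4 libraries labelled ft/ft against 4 labelled ft/ftMyD88-/-, from mice of the BALB/c strain given as female and 6 weeks old. Mice labelled ft/ft have a mutation that disables filaggrin (*Flg*), which the cornified layer of the epidermis needs as a barrier protein, and had the ma mutation bred out. Mice labelled ft/ftMyD88-/- carry the same filaggrin mutation and MyD88 deficiency on top of it, so both groups are filaggrin deficient. MyD88 is the adaptor that passes on signals of IL-1 family cytokines and of most toll-like receptors. Wild-type libraries were not analysed here. Nothing in the labels says whether replicates shared a litter or were processed together, so p-values measure the spread between these libraries.

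Libraries held 15802957 to 29255129 counts. The sources disagree on how they were made: the sample labels give total RNA, a protocol for fixed tissue and Cell Ranger, and the study's methods name polyA-selected TruSeq libraries. *Myd88* itself was not lower but higher under the ft/ftMyD88-/- label, with overlapping groups. It was at 41.2 ± 7.29 CPM (SD, n = 4) against 30.7 ± 4.74 (SD, n = 4), a log2 fold change of 0.42 (adjusted p by edgeR = 0.0484). CPM are counts scaled to a common library size by edgeR's TMM method. Counts per gene cannot show a deleted exon, so directions follow the labels. *Flg* stood at 103 ± 69.8 CPM (SD, n = 4) in ft/ft and 242 ± 39.5 (SD, n = 4) in ft/ftMyD88-/-, where the groups overlapped (adjusted p by edgeR = 0.12). *Xist*, the RNA of the inactive X chromosome of females, had 0 or 1 count in every ft/ft library and 567 to 1964 in every ft/ftMyD88-/- library. The Y-linked *Ddx3y* was at 65.0 ± 8.97 CPM (SD, n = 4) in ft/ft and 0.147 ± 0.225 (SD, n = 4) in ft/ftMyD88-/-. All ft/ft libraries thus carried male-type and all ft/ftMyD88-/- libraries female-type transcripts, against the stated female sex. The effects of genotype and of sex cannot be told apart here. The paper also reports inflamed periocular skin with a thicker epidermis in ft/ftMyD88-/- mice, and no visible inflammation in ft/ft mice. Effects of that inflammation cannot be told apart from those of genotype or sex either.

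A collagen molecule is a triple helix of chains, and each chain has its own gene. Fibrillar collagens form the ropes of the dermis, made mainly by fibroblasts. Fibril-associated collagens sit on the surface of those fibrils, type IV builds the sheet of basement membranes, type VI forms beaded filaments around cells, type VII anchors the epidermis to the dermis, and transmembrane collagens such as type XVII hold basal keratinocytes to the basement membrane.

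*Col1a1*, *Col1a2* and *Col3a1*, the chains of types I and III, were lower in ft/ftMyD88-/- skin, while the fibrillar chains *Col11a1* and *Col27a1* and the fibril-associated *Col12a1* were higher. Among the 43 collagen genes, 10 were lower in ft/ftMyD88-/- and 4 were higher at an edgeR adjusted p under 0.05, and 29 were not called. Over all tested genes 12.3% were called lower and 10.9% higher, against 23.3% and 9.3% of the collagen genes. The lower genes were *Col1a1*, *Col1a2*, *Col3a1*, *Col20a1*, *Col4a3*, *Col4a4*, *Col4a5*, *Col4a6*, *Col8a2* and *Col17a1*. The higher genes were *Col11a1*, *Col27a1*, *Col12a1* and *Col23a1*. In each of these 14 genes the values of the 2 groups did not overlap, and they were the 14 collagen genes without overlap, where 26.7% of all tested genes had none. The median log2 fold change, given throughout as ft/ftMyD88-/- over ft/ft, was -0.26 over the collagen genes and 0.01 over all tested genes. With a log2 fold change of at least 1 in size, 3 collagen genes were higher and 6 lower, against 3.68 and 2.54% of all tested genes. Of the 14 calls, 10 held in all 17 fits, those with another tool, scaling, filter or block or without 1 library included, and the exceptions were *Col20a1*, *Col4a5*, *Col4a6* and *Col23a1*. Scaling by library size alone moved the median of all genes by 0.18 on the log2 scale, and the split was then 6 higher and 8 lower collagen genes, where all tested genes had 22.7% higher and 6.48% lower.

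**Figure D1:**
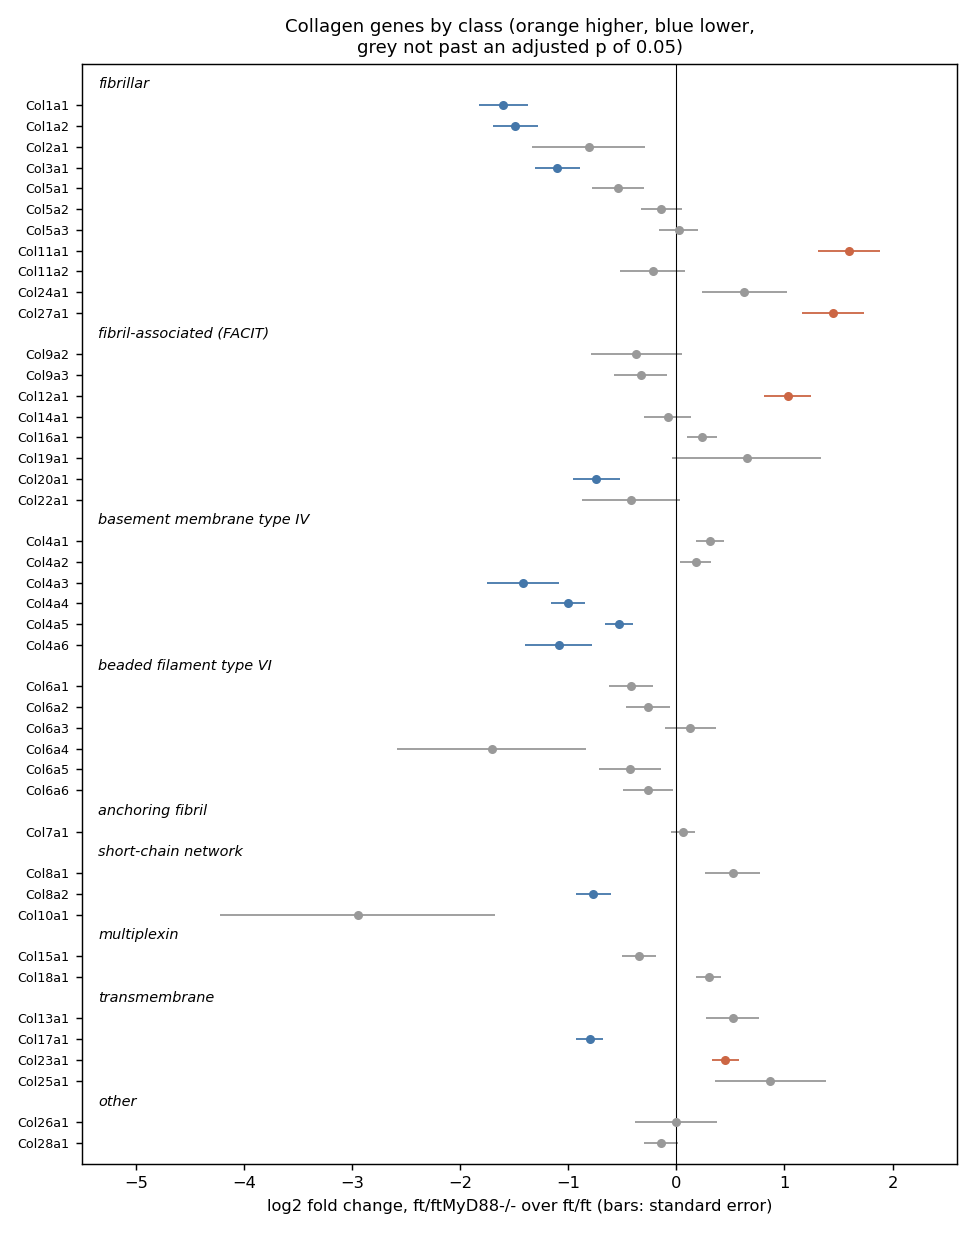
Log2 fold change (ft/ftMyD88-/- over ft/ft, x axis) with its standard error for each of the 43 collagen genes, grouped by class. Col1a1, Col1a2 and Col3a1 lie between -1.6 and -1.1 and Col11a1, Col27a1 and Col12a1 between 1.03 and 1.6, while all 6 type VI genes are grey, that is not past an adjusted p of 0.05.

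*Col1a1* and *Col1a2*, the 2 chains of type I collagen, the main protein of dermal fibrils, fell in ft/ftMyD88-/-. *Col1a1* (GRCm38 chromosome 11, 94936224 to 94953042) was at 3070, 4490, 7190 and 4470 CPM in ft/ft replicates 1 to 4 and at 1430, 1810, 1730 and 1380 CPM in ft/ftMyD88-/- replicates 1 to 4. The lowest ft/ft library therefore stood above the highest ft/ftMyD88-/- library. The means were 4800 ± 1720 and 1590 ± 212 CPM (SD, n = 4 each), 3.03-fold lower, and the log2 fold change was -1.60 (standard error, SE, of 0.226, adjusted p by edgeR = 9.07e-04). *Col1a2* (chromosome 6, 4504814 to 4541544) was at 4150, 5230, 8950 and 5800 CPM in ft/ft and at 1880, 2320, 2380 and 1990 in ft/ftMyD88-/-. Replicate 3 was the highest of the ft/ft libraries for both chains and replicate 1 the lowest, and the groups did not overlap. Its log2 fold change was -1.49 (SE 0.208, adjusted p by edgeR = 6.84e-04).

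*Col3a1*, the single chain of type III collagen, which forms finer fibrils together with type I, fell as well. *Col3a1* (chromosome 1, 45311538 to 45349706) was at 5380, 6910, 10400 and 7600 CPM in ft/ft and 2670, 4560, 3630 and 3260 in ft/ftMyD88-/-. The groups did not overlap, and replicate 3 was again the highest ft/ft library. The log2 fold change was -1.10 (SE 0.210, adjusted p by edgeR = 0.00369).

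Type V collagen, which co-assembles with type I in the core of the fibril, was not called in any of its chains. *Col5a1* was at 191, 322, 410 and 311 CPM in ft/ft and 172, 287, 215 and 176 in ft/ftMyD88-/-, with overlapping groups (log2 fold change -0.54, SE 0.241, adjusted p by edgeR = 0.142). *Col5a2*, whose gene lies 24615 bases from *Col3a1* on the opposite strand, was at 218, 332, 432 and 330 CPM against 238, 359, 298 and 296. The 2 groups shared most of their range, the log2 fold change was -0.14 (SE 0.190, adjusted p by edgeR = 0.646), and it turned to 0.04 with library size alone. *Col5a3* had means of 90.3 and 91.4 CPM.

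*Col11a1*, a chain of type XI collagen best known from cartilage, rose in ft/ftMyD88-/-. *Col11a1* (chromosome 3, 114030540 to 114220718) was at 7.72, 10.9, 19.5 and 12.1 CPM in ft/ft and at 46.8, 26.3, 36.5 and 41.6 in ft/ftMyD88-/-. Every ft/ftMyD88-/- library stood above the highest ft/ft library, with means of 12.5 ± 5 and 37.8 ± 8.77 CPM (SD, n = 4 each), for a log2 fold change of 1.60 (SE 0.286, adjusted p by edgeR = 0.0052). Its partner *Col11a2* was at 1.73 and 1.48 CPM on average and was not called (log2 fold change -0.22).

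*Col27a1*, another fibrillar chain known from cartilage, was at 1.67, 2.07, 2.23 and 2.26 CPM in ft/ft and 3.16, 8.67, 6.4 and 4.09 in ft/ftMyD88-/-. The ft/ft libraries lay close together while the ft/ftMyD88-/- libraries were spread, and the groups did not overlap (log2 fold change 1.45, SE 0.287, adjusted p by edgeR = 0.00427). *Col24a1*, which is found with type I in bone, had a log2 fold change of 0.63 (edgeR adjusted p = 0.279), and *Col2a1*, the main cartilage fibril chain, had one of -0.81 at 5 to 44 counts per library; neither was called. Of the cartilage markers, *Acan*, the large proteoglycan of cartilage, was higher as well (log2 fold change 1.16, edgeR adjusted p = 0.0333) and the other 3 tested markers were not called. The 4 markers summed to 67.3 to 78.7 CPM in ft/ft and 62.5 to 83.3 in ft/ftMyD88-/-, but most of the sum was *Sox9*, at 66.4 and 65.8 CPM, which hair follicle cells also make. *Acan* was at 2.96 and 6.49 CPM, *Cnmd* at 0.248 and 0.137 and *Hapln1* at 0.619 and 0.524. *Matn1*, which defines cartilage, was not analysed here. The part of cartilage in the *Col11a1* value was not tested.

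**Figure D2:**
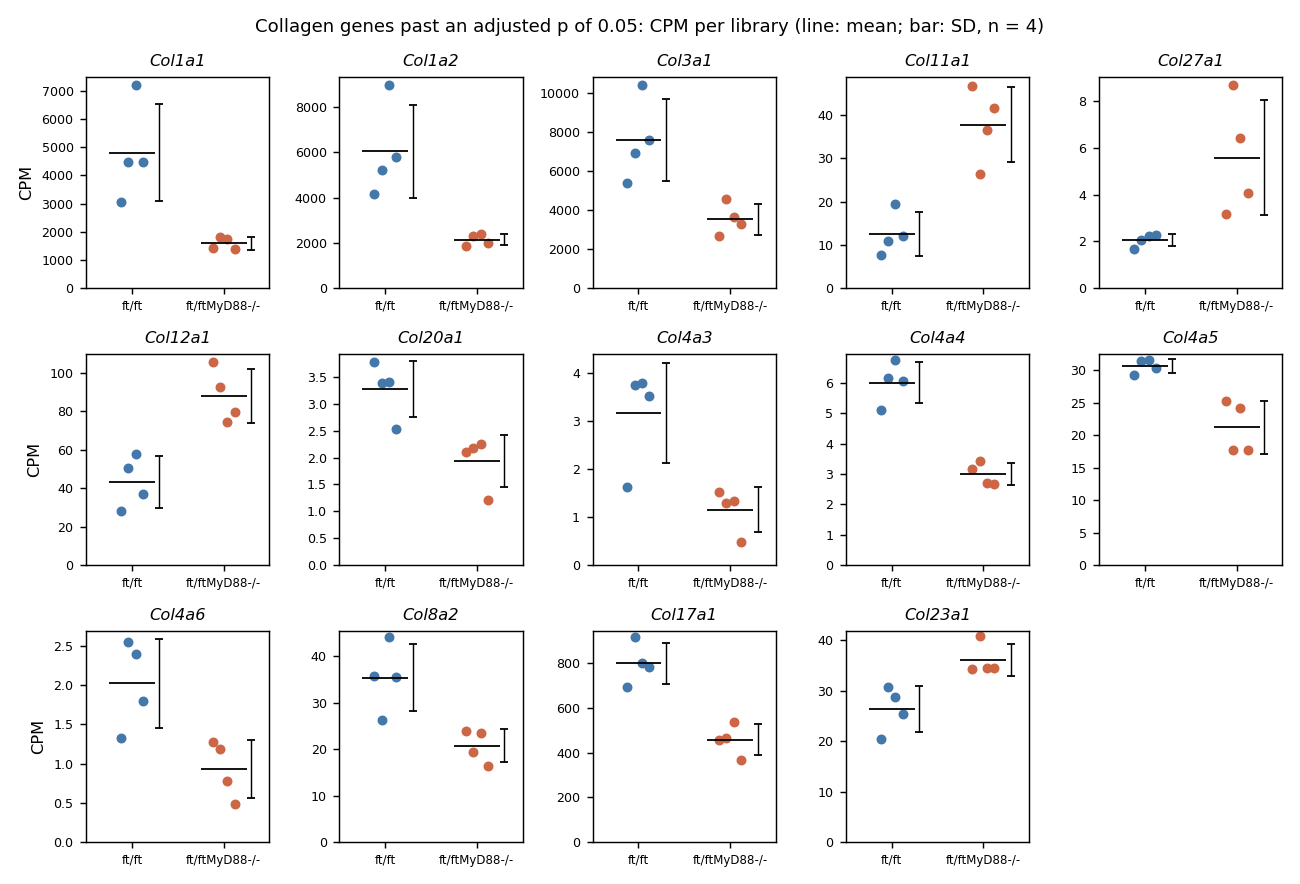
CPM (y axis, from 0) of the 14 collagen genes past an adjusted p of 0.05 in each of 4 ft/ft and 4 ft/ftMyD88-/- libraries, with the mean as a line and the SD as a bar. In every panel the 2 groups occupy separate ranges, as for Col1a1 at 3070 to 7190 against 1380 to 1810 CPM.

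Per length, type III and type I remained the most abundant collagens in both groups. A level per length takes reads to fall along the whole transcript. That was not checked, and the sources disagree on the library protocol. In ft/ft, *Col3a1* was at 772, *Col1a1* at 732 and *Col1a2* at 486 CPM per kilobase of exon (GENCODE M21), followed by *Col17a1* at 133 and *Col6a1* at 97.2. In ft/ftMyD88-/- the order of these 5 was the same, at 360, 242, 172, 76.0 and 72.7. *Col3a1* and *Col1a1* do not differ beyond their spread in ft/ft (SD 216 and 263), nor do *Col17a1* and *Col6a1* in ft/ftMyD88-/- (SD 11.5 and 13.1). *Col4a1*, at rank 7 in ft/ft, was at rank 6 in ft/ftMyD88-/-, and *Col11a1* moved from rank 26 to 22 and *Col27a1* from 37 to 28 among the 43. By coding length, an alternative added after the data were seen, *Col1a2* passed *Col1a1*, since the exons annotated for *Col1a2* span 12426 bases and its coding sequence 4116.

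**Figure D3:**
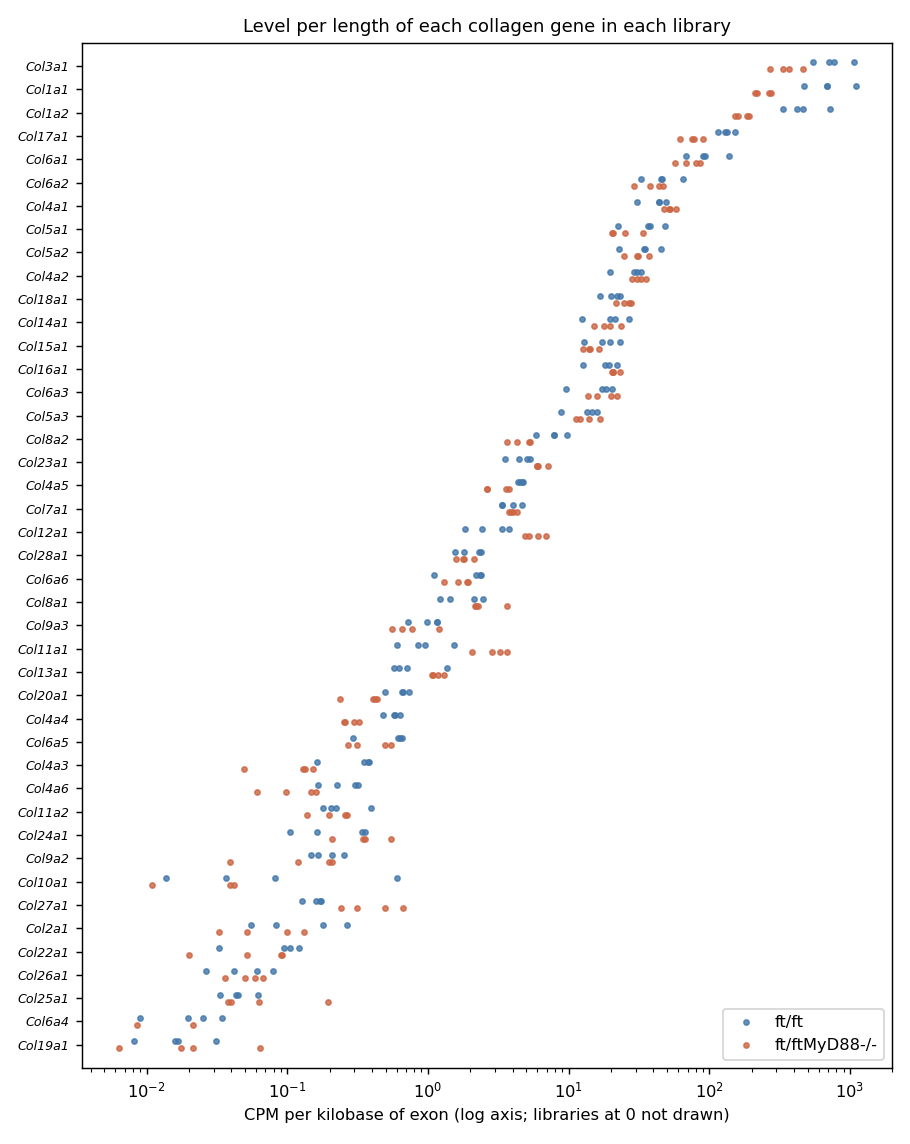
CPM per kilobase of exon (log axis) of each collagen gene in each library, ordered by the ft/ft mean. Col3a1 leads at 772 in ft/ft, and the blue and orange points of Col1a1, Col1a2 and Col3a1 stand apart.

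Collagen genes held a smaller share of the RNA in ft/ftMyD88-/-. They took 1.42, 1.94, 2.95 and 2.08% of all counts in ft/ft replicates 1 to 4 and 0.96, 1.34, 1.23 and 1.01% in ft/ftMyD88-/-. The groups did not overlap, and the ratio of their mean shares was 0.541, or 0.538 without the 10 genes with most counts. *Col1a1*, *Col1a2* and *Col3a1* made up 80.7 to 85.1% of collagen counts in ft/ft and 65.8 to 69.7% in ft/ftMyD88-/-. The ft/ft libraries were ordered alike for most chains. Of the 22 collagen genes with a mean of at least 20 CPM, replicate 1 was the lowest ft/ft library in 21 and replicate 3 the highest in 17. In ft/ftMyD88-/-, replicate 2 was the highest in 11 and replicate 1 the lowest in 10. In bulk tissue, fewer cells of a type and less RNA per cell cannot be told apart.

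**Figure D4:**
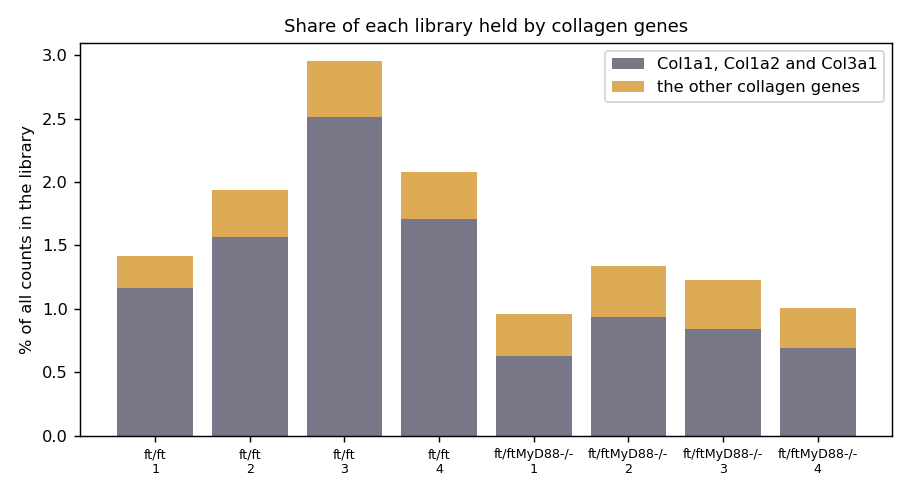
Share of all counts in a library (%, y axis) held by Col1a1, Col1a2 and Col3a1 and by the other collagen genes, for each library. Totals span 1.42 to 2.95% in ft/ft but 0.96 to 1.34% in ft/ftMyD88-/-.

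Fibroblast markers did not move as one with the type I chains. Of 10 markers, 4 were higher in ft/ftMyD88-/- and 1 was lower. *Fap*, a protease of activated fibroblasts, had a log2 fold change of 1.28, *Pi16* of 0.73, *Thy1* of 0.67 and *Mfap5* of 0.60 (edgeR adjusted p = 4.67e-04 to 0.0263). The groups overlapped for *Thy1* and *Mfap5* but not for *Fap* and *Pi16*. *Pdgfra* and *Prrx1*, receptor and transcription factor of fibroblasts, were not called, at log2 fold changes of 0.31 and -0.06. The 10 markers summed to 3540 to 4650 CPM in ft/ft and 2370 to 3540 in ft/ftMyD88-/-, a sum set mostly by *Gsn*, an actin-severing protein that other cells also make and that fell from 3460 to 2010 CPM. Divided by that sum, *Col1a1* was lower in ft/ftMyD88-/- by a mean log2 of -1.03, *Col1a2* by -0.93 and *Col3a1* by -0.57, while *Col12a1* was higher by 1.58. The ranges of these 4 ratios did not overlap between the groups.

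Among the 8 fibril-associated collagens 1 was higher and 1 lower. *Col12a1*, which bridges fibrils and is made where tissue bears tension, rose in ft/ftMyD88-/-. *Col12a1* (chromosome 9, 79598991 to 79718831) was at 28, 50.8, 57.7 and 36.8 CPM in ft/ft and 106, 92.5, 74.5 and 79.9 in ft/ftMyD88-/-. All ft/ftMyD88-/- libraries were above all ft/ft libraries (log2 fold change 1.03, SE 0.217, adjusted p by edgeR = 0.00918). *Col20a1*, a rare chain, fell from 3.27 ± 0.526 to 1.93 ± 0.48 CPM (SD, n = 4 each), for a log2 fold change of -0.74 (SE 0.22, adjusted p by edgeR = 0.0302). That call was lost with library size alone (adjusted p = 0.0809) and without any 1 of ft/ft replicates 1, 2 and 3 or ft/ftMyD88-/- replicate 4. The more abundant *Col14a1* and *Col16a1* were not called, at 141 and 121 CPM in ft/ft and 133 and 143 in ft/ftMyD88-/-. *Col9a2*, *Col9a3* and *Col22a1* had log2 fold changes from -0.42 to -0.33. *Col19a1* had 1 to 13 counts per library and was not called.

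Type IV collagen split by chain. *Col4a1* and *Col4a2*, the chains of the basement membrane found in nearly every tissue, were not called, and the 4 chains of the more specialised networks, *Col4a3*, *Col4a4*, *Col4a5* and *Col4a6*, all fell. *Col4a1* (chromosome 8, 11198423 to 11312826) was at 230, 329, 330 and 367 CPM in ft/ft and 390, 430, 384 and 357 in ft/ftMyD88-/-. Only replicate 4 of ft/ftMyD88-/- lay within the ft/ft range (log2 fold change 0.31, SE 0.131, adjusted p by edgeR = 0.102; 0.0203 with library size alone). *Col4a2*, which shares its start region with *Col4a1* on the opposite strand, was at 130, 194, 216 and 204 against 218, 236, 203 and 187 CPM, with overlapping groups (log2 fold change 0.18, SE 0.143, adjusted p by edgeR = 0.388).

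*Col4a3* and *Col4a4* lie head to head on chromosome 1, 72 bases apart. *Col4a3* was at 1.63, 3.75, 3.79 and 3.53 CPM in ft/ft and 1.53, 1.29, 1.33 and 0.488 in ft/ftMyD88-/-. The groups did not overlap, though replicate 1 of ft/ft stood close to replicate 1 of ft/ftMyD88-/- (log2 fold change -1.42, SE 0.333, adjusted p by edgeR = 0.00988). *Col4a4* (chromosome 1, 82448423 to 82586849) was at 5.1, 6.15, 6.75 and 6.06 CPM against 3.16, 3.42, 2.72 and 2.68. Its groups were well apart, with a log2 fold change of -1.0 (SE 0.158, adjusted p by edgeR = 0.00112).

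*Col4a5* and *Col4a6*, the X-linked pair, are 1309 bases apart on opposite strands. *Col4a5* was at 29.2 to 31.6 CPM in ft/ft and 17.7 to 25.2 in ft/ftMyD88-/-, a log2 fold change of -0.53 (SE 0.126, adjusted p by edgeR = 0.0104; 0.0633 with library size alone). *Col4a6* was at 1.33, 2.55, 2.4 and 1.8 CPM in ft/ft and 1.27, 1.18, 0.783 and 0.488 in ft/ftMyD88-/-. Its groups nearly touched (log2 fold change -1.09, SE 0.308, adjusted p by edgeR = 0.0239), and the call was lost without any 1 of ft/ft replicates 2 and 3 and ft/ftMyD88-/- replicates 3 and 4. Both genes are on the X chromosome and were lower in the libraries with female-type transcripts. The part of sex in their values was not tested and cannot be told apart from that of genotype. Endothelial markers, whose cells lie on a type IV basement membrane, summed to 319 to 389 CPM in ft/ft and 242 to 323 in ft/ftMyD88-/- (of 10, *Kdr* -0.55, *Vwf* -0.48 and *Tie1* -0.44 on the log2 scale were lower and *Egfl7* 0.49 higher; *Pecam1* -0.23 and *Cdh5* -0.32 were not called), and pericyte and smooth muscle markers to 482 to 749 and 590 to 695 CPM (of 9, *Notch3* -0.37 was lower and *Acta2* 0.52 and *Mcam* 0.38 higher; *Rgs5* 0.18 and *Myh11* -0.17 were not called). The part of these cells in the type IV values was not tested.

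Type VI collagen was not called in any of its 6 chains. *Col6a1* was at 298, 407, 604 and 394 CPM in ft/ft and 248, 375, 354 and 297 in ft/ftMyD88-/- (log2 fold change -0.42, SE 0.205, adjusted p by edgeR = 0.169). *Col6a2*, its neighbour on chromosome 10, was at 270, 384, 538 and 375 against 244, 388, 365 and 314 CPM, and its log2 fold change was -0.26 (edgeR adjusted p = 0.406). The groups overlapped for both chains. *Col6a3* was at 115, 206, 245 and 219 CPM against 163, 264, 240 and 191, with a log2 fold change of 0.13 (edgeR adjusted p = 0.738) that turned to -0.06 without ft/ft replicate 1. *Col6a5* and *Col6a6*, skin-expressed chains of a cluster on chromosome 9, had log2 fold changes of -0.43 and -0.26. *Col6a4* of the same cluster had 0 to 3 counts in each ft/ftMyD88-/- library and 2 to 8 in each ft/ft library, which is too few for a fold to be read from its libraries.

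Partner chains of a type did not always keep their ratio. *Col1a1* over *Col1a2* gave a log2 ratio of -0.44 to -0.22 in ft/ft and -0.53 to -0.36 in ft/ftMyD88-/-, which overlap. *Col5a1* over *Col5a2* lay at -0.19 to -0.04 and -0.75 to -0.32, and *Col6a1* over *Col6a2* at 0.07 to 0.17 and -0.08 to 0.02, without overlap. *Col6a3* over *Col6a1* lay at -1.38 to -0.85 in ft/ft and -0.64 to -0.51 in ft/ftMyD88-/-. The widest separation was *Col11a1* over *Col11a2*, at 2.45 to 3.14 in ft/ft and 4.56 to 4.78 in ft/ftMyD88-/-. *Col8a1* over *Col8a2* lay at -1.66 to -1.09 and -0.5 to 0.58. Ranges did not overlap in 5 of the 7 pairs with at least 10 counts in each library, which is a description with no test. The share among ratios of other gene pairs was not computed, so the count cannot be called particular to collagen. Of single tested genes, 26.7% had no overlap.

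**Figure D5:**
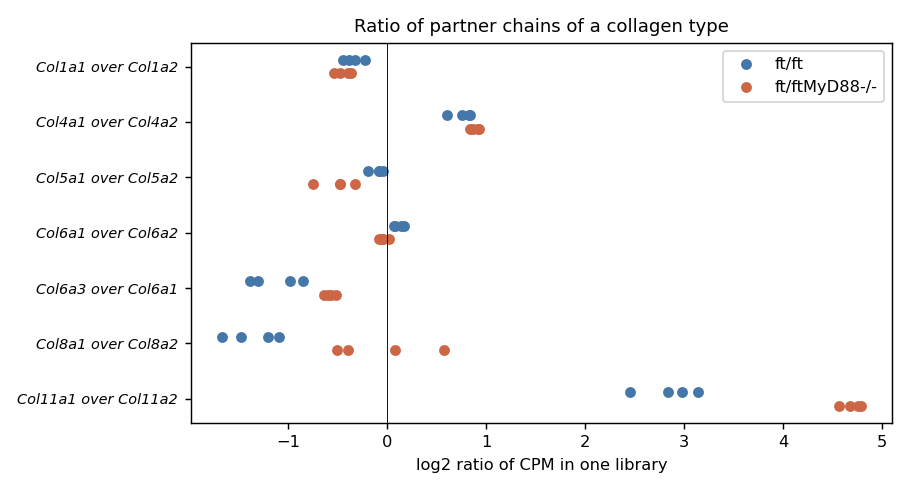
Log2 ratio of the CPM of 2 chains of a collagen type in each library (x axis). Col11a1 over Col11a2 separates the groups by the widest gap, at most 3.14 in ft/ft and at least 4.56 in ft/ftMyD88-/-.

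Collagens of the epidermal junction and cell surface showed both directions. *Col17a1*, the hemidesmosome collagen of basal keratinocytes (chromosome 19, 47646344 to 47692094), was at 693, 916, 801 and 782 CPM in ft/ft and 454, 467, 538 and 369 in ft/ftMyD88-/-. The groups were far apart (log2 fold change -0.80, SE 0.125, adjusted p by edgeR = 0.00104). Basal keratinocyte markers moved with it: 6 of 9 were lower, *Krt5* with a log2 fold change of -0.67 and *Krt15* of -1.36, while *Krt14* (0.05) and *Trp63* (-0.18) were not called, and their sum was 14000 to 17100 CPM in ft/ft and 9780 to 12000 in ft/ftMyD88-/-. The part of this in the *Col17a1* value was not tested. *Col7a1*, the anchoring fibril, was at 34.4, 48, 41.1 and 34.6 CPM against 40.1, 41.2, 44.5 and 38.7, with overlapping groups (log2 fold change 0.06, SE 0.113, adjusted p by edgeR = 0.754). *Col23a1*, a transmembrane collagen, was at 20.4, 30.7, 28.8 and 25.4 CPM in ft/ft and 34.3, 40.8, 34.5 and 34.4 in ft/ftMyD88-/- (log2 fold change 0.45, SE 0.125, adjusted p by edgeR = 0.0221), a call lost without ft/ft replicate 4 or ft/ftMyD88-/- replicate 2. *Col13a1* and *Col25a1* were not called.

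The remaining chains were mostly not called. *Col8a2*, a short-chain collagen of Descemet's membrane and vessels, fell from 35.3 ± 7.23 to 20.7 ± 3.59 CPM (SD, n = 4 each), for a log2 fold change of -0.77 (SE 0.161, adjusted p by edgeR = 0.00576), while *Col8a1* was at 14.1 and 20.2 CPM (edgeR adjusted p = 0.164). Markers of cornea and conjunctiva summed to 1710 to 3170 CPM in ft/ft and 1220 to 2040 in ft/ftMyD88-/- (of 6, *Aldh3a1*, a crystallin-like enzyme of the corneal epithelium, -1.36 on the log2 scale, from 598 to 232 CPM, and *Krt13* -0.70 were lower; *Krt4* -0.74 and *Muc5ac* 0.66 were not called, nor was *Krt12*, which defines the cornea, at 0.0701 and 0.354 CPM). The part of eye tissue in the *Col8a2* and *Col4a3* to *Col4a6* values was not tested. *Col10a1*, a growth plate collagen, had 34 of its ft/ft counts in replicate 3 and 0 to 3 counts in each ft/ftMyD88-/- library. *Col15a1* and *Col18a1*, basement membrane zone collagens that carry endostatin-like ends, had log2 fold changes of -0.35 and 0.30 (edgeR adjusted p = 0.13 and 0.0763). *Col26a1* and *Col28a1* had log2 fold changes of 0.00 and -0.14.

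The sequences that follow show the seed match of the microRNA family miR-29, known to target many collagen mRNAs, in chains that fell and chains that rose. The mature strands of the family share 1 seed, bases 2 to 8, printed in capitals (RefSeq).
mmu-miR-29a-3p: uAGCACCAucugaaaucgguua
mmu-miR-29b-3p: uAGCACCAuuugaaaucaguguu
mmu-miR-29c-3p: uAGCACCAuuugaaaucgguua
The match TGGTGCT, in capitals, was read on the coding strand of 3′ UTRs of GENCODE M21 (GRCm38), and the first match is shown with its flanks.
*Col1a1*: gaaggaatttcTGGTGCTatagaagctg
*Col3a1*: aaatgtctcaaTGGTGCTataataaata
*Col4a3*: agtggacgtgaTGGTGCTgatacttaag
*Col11a1*: ttggatttcgtTGGTGCTgtagaaaaca
*Col27a1*: tgtgaaatcgcTGGTGCTcacaattgtc
*Col1a1*, *Col3a1* and *Col4a3* fell and *Col11a1* and *Col27a1* rose, and these 5 are printed as examples that hold the match. *Col4a4*, *Col4a5* and *Col4a6*, which fell too, hold it as well and are not printed. *Col1a2*, *Col12a1*, *Col20a1*, *Col8a2*, *Col17a1* and *Col23a1*, which were also called, hold none. Of 40 collagen genes with a 3′ UTR sequence, 22 (55.0%) hold it, against 1995 of 15132 tested genes (13.2%). Among the 22 with a match, 2 were higher and 6 lower (median log2 fold change -0.20), and among the 18 with a sequence and no match 2 were higher and 4 lower (median -0.35). The other 3, *Col6a3*, *Col11a2* and *Col18a1*, had no 3′ UTR sequence here. A match is a description of the letters, and microRNAs were not measured.

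The start regions of *Col3a1*, which fell, and *Col11a1*, which rose, differ in the motifs they hold, and are printed for that reason. The window runs from 150 bases before to 25 bases after the RefSeq start (GRCm38.p6). The letters of the TATA box (TATAAA), the CCAAT box and the GC box (GGGCGG) were searched for on both strands, wherever they lay. Matches are in capitals.
*Col3a1* (chr1:45311388-45311562, plus strand): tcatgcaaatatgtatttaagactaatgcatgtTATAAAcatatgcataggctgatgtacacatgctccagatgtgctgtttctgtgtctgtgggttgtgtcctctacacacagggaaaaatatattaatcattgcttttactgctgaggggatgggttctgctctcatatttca
*Col11a1* (chr3:114030390-114030564, plus strand): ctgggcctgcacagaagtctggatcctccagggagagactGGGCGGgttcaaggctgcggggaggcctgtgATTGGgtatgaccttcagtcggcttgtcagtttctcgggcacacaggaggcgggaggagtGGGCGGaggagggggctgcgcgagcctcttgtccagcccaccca
*Col3a1* holds TATAAA and neither other motif, and *Col11a1* holds CCAAT on the reverse strand and GGGCGG. RefSeq's windows of 250 bases before to 50 after the start covered 34 of the 43 collagen genes, 2 of them with 2 windows, and not *Col1a1*, *Col12a1* or *Col4a3*. Of these 36 windows 33.3% hold CCAAT, 63.9% GGGCGG and 13.9% TATAAA, against 37.4, 35.7 and 13.6% of 32851 promoters. A match says only that the letters are there.

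Enzymes that modify and secrete collagen changed in both directions. In the 7 lists of pathway genes, 104 in all, where a number in brackets is a log2 fold change, 14 genes were higher and 18 lower, with 12.3% of all tested genes lower and 10.9% higher. With library size alone 8 of the 18 lower genes, named here with that adjusted p, were not called. In the modification list 2 of 22 were higher and 3 lower. *P4ha3*, a prolyl 4-hydroxylase subunit, rose from 0.953 to 4.00 CPM (log2 fold change 2.07, edgeR adjusted p = 0.00289), and *Plod2*, the lysyl hydroxylase of collagen telopeptides, from 2.55 to 8.44 CPM (1.74, adjusted p = 0.00113). *P3h2*, a prolyl 3-hydroxylase, fell (-0.68, adjusted p = 8.92e-04), as did the lysyl hydroxylase *Plod1* (-0.41; 0.26 with library size alone) and the transcription factor *Creb3l1* (-0.44; 0.143), whose groups overlapped. The abundant *P4hb*, *Serpinh1*, the collagen chaperone HSP47, and *Mia3*, which loads procollagen for export, were not called, at log2 fold changes of -0.17, -0.12 and -0.05.

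Procollagen processing and crosslinking had 2 of 13 genes higher and 2 lower. *Lox*, which crosslinks collagen, fell from 108 to 61.0 CPM (log2 fold change -0.82, edgeR adjusted p = 0.0442; 0.0915 with library size alone), with overlapping groups, and *Adamts14*, a procollagen N-proteinase, fell (-0.49, adjusted p = 0.0288; 0.145). *Adamts3*, of the same proteinase group, rose from 0.404 to 0.92 CPM and *Bmp1*, the C-proteinase, from 68.7 to 87.4 CPM. *Adamts2* (-0.49), *Pcolce* (-0.52) and *Loxl1* (0.75) were not called. Among 19 fibril-associated proteins 1 was higher and 3 lower. *Sparc*, a collagen-binding protein, fell from 2510 to 1290 CPM (log2 fold change -0.95, adjusted p = 0.00182), as did the small proteoglycans *Kera* (-0.96) and *Fmod* (-1.17; adjusted p = 0.0632 with library size alone), while *Postn*, a matricellular protein, rose from 310 to 465 CPM (0.58, edgeR adjusted p = 0.00246). *Dcn* (-0.40), *Fn1* (-0.16) and *Dpt* (0.39) were not called.

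The elastic fibre list had 1 of 13 higher and 2 lower: *Fbn2*, a fibrillin of developing tissue, rose from 3.16 to 11.2 CPM (log2 fold change 1.83, edgeR adjusted p = 7.56e-04), *Fbln1* (-0.79) and *Ltbp4* (-0.52; adjusted p = 0.13 with library size alone) fell, and *Fbn1* (-0.22), *Eln* (-0.25) and *Mfap4* (-0.23) were not called. Of 9 collagen receptors 3 were higher and 2 lower. *Lair1*, an inhibitory collagen receptor of leukocytes, rose from 0.677 to 2.54 CPM (1.88, adjusted p = 0.00108), as did the integrin chains *Itga1* (0.53) and *Itga11* (0.69), while the receptors *Ddr1* (-0.45) and *Itga2* (-0.41; adjusted p = 0.133 with library size alone), both made by keratinocytes, fell. *Itgb1* (0.00), *Ddr2* (0.05) and *Mrc2* (-0.14) were not called. In collagen breakdown 1 of 10 was higher and 2 lower: *Mmp13*, an interstitial collagenase, rose from 0.343 to 2.91 CPM (3.04, adjusted p = 0.00603), with 0.438 in ft/ftMyD88-/- replicate 1 and 3.23 to 4.21 in the others, and the inhibitors *Timp4* (-1.36) and *Timp3* (-0.47; adjusted p = 0.142 with library size alone) fell. *Timp1*, an inhibitor named after its values were seen, was at 2.14, 3.53, 2.79 and 2.68 CPM in ft/ft and 3.16, 50.6, 5.55 and 13.7 in ft/ftMyD88-/-, and was not called (2.71, edgeR adjusted p = 0.0898). *Mmp2* (-0.28), *Mmp14* (0.09) and *Timp2* (-0.35) were not called.

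TGF-beta, the growth factor that drives collagen transcription in fibroblasts, had 4 of 18 pathway genes higher and 4 lower. *Tgfb2*, a ligand, fell from 30.6 to 13.0 CPM (log2 fold change -1.23, edgeR adjusted p = 1.51e-04), and *Tgfbi*, a target gene, fell (-1.08, adjusted p = 0.00128). The inhibitors *Skil* (0.70) and *Smad7* (1.07) rose. *Tgfbr2* (0.32), *Ltbp3* (-0.24) and *Smad4* (-0.18) were not called.

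Markers of other cells in the biopsy also moved, with log2 fold changes in brackets. Skeletal muscle markers fell in 8 of 10 genes (*Acta1* -0.91, *Ckm* -1.10, *Mylpf* -0.76), with sums of 9700 to 13100 CPM in ft/ft and 3710 to 7150 in ft/ftMyD88-/-. Of 6 dermal papilla markers 3 rose (*Corin* 0.92, *Hhip* 0.73, *Wif1* 0.67) and *Rspo3* -0.45 and *Sox2* 0.82 were not called, with sums of 31.4 to 48 and 51.3 to 61.7 CPM. None of 7 adipocyte markers was called (*Adipoq* -0.06, *Plin1* -0.50, *Cidec* -0.22), with sums of 432 to 1010 and 442 to 1040 CPM. Of 6 macrophage markers 1 rose (*C1qa* 0.51; *Adgre1* -0.03, *Csf1r* -0.21 and *Cd68* -0.11 were not called), with sums of 278 to 420 and 336 to 518 CPM. Of 4 osteoblast markers 2 rose, *Sp7* from 0.195 to 0.494 CPM and *Dmp1* from 0.241 to 0.571, with sums of 24.6 to 50.6 and 16.8 to 43.6 CPM. Most of the sum was *Alpl*, at 32.4 and 31.2 CPM, which was not called. *Ibsp*, at 0.114 and 0.0184 CPM, was not called either (-2.22). The part of these cells in the collagen values was not tested.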

How the data were processed

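The authors deposited 1 table of counts, whole reads per gene and not normalized. The study's methods give HISAT and tophat2 as aligners, GRCm38.p6 as the genome and HTSeq at its defaults for the differential expression step, and do not say which tool counted reads, while the labels of these samples name Cell Ranger and GRCm38. Tool versions, annotation and strand setting are not given in the sources used here, so reads of overlapping genes on opposite strands may be shared. For *Col4a1* and *Col4a2* the annotated overlap is short (chromosome 8, 11312805 to 11312826). A sum of at least 10 counts was required of a gene. The test was edgeR 4.0.16's quasi-likelihood test in R 4.3.3 (robust fit, two-sided, TMM, no covariate) and Benjamini-Hochberg adjustment over all 20454 genes. Standard errors came from the log2 fold change and F. The biological coefficient of variation was 0.182. A count of 0 allows up to 3 counts, 0.102 to 0.183 CPM, for counting error only. Total counts did not differ between the groups (exact permutation test, two-sided, p = 0.457). No 2 libraries of a group agreed within counting noise (lowest chi-square per degree of freedom 16.3).

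The genes and gene lists were chosen with earlier results of these data known. Library-by-library values are given for called collagen genes with a log2 fold change of at least 0.8 in size and for the main chains, and pathway lists give up to 5 called genes with the smallest p and 3 not called with the highest count. Cell type lists give the first 3 genes, and others were named after their values were seen. A few genes and marker lists that these rules cover are not reported here. Alternatives were DESeq2 1.42.0, RLE factors, library size only, TMM without the collagen genes, filterByExpr, no filter, limma 3.58.1 voom, a block for the replicate number, leave-one-out fits, an adjusted p under 0.01 and a minimum log2 fold change of 1. The fit was tested on simulated data.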

Additional observations from a re-analysis of the deposited data

Results flagged for a closer look

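Each collagen gene was checked in each group for 1 library far from the other 3 (the gap over the range above 0.829, Dixon's 95% value for 4 samples), and 9 of 86 such groups were marked, where chance marks about 1 in 20. In ft/ft replicate 1, *Col4a3* was at 1.63 CPM with the others at 3.53 to 3.79, *Col6a5* at 2.74 with the others at 5.75 to 6.13, and *Col6a6* at 10.1 with the others at 20.1 to 22. In ft/ft replicate 3, *Col10a1* was at 1.9 CPM with the others at 0.0429 to 0.255. In ft/ftMyD88-/- replicate 1, *Col16a1* was at 156 CPM with the others at 138 to 140, and *Col25a1* at 2.54 with the others at 0.488 to 0.817. In ft/ftMyD88-/- replicate 2, *Col8a1* was at 28.8 CPM with the others at 16.9 to 17.8, and *Col23a1* at 40.8 with the others at 34.3 to 34.5. In ft/ftMyD88-/- replicate 4, *Col20a1* was at 1.22 CPM with the others at 2.1 to 2.25.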

How the results depend on the processing

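Over the fits with another tool, scaling, filter or the block, collagen genes called lower numbered 8 to 11 and called higher 4 to 6, against 10 and 4, and leaving out 1 library gave 8 to 12 lower and 3 to 5 higher. With a log2 fold change of at least 1, 6 collagen genes were lower. Library size alone lost *Col20a1* and *Col4a5*, gained *Col4a1* and *Col18a1*, and turned *Col5a2* to 0.04, *Col14a1* to 0.10, *Col28a1* to 0.03, *P4hb* to 0.01, *Serpinh1* to 0.05, *Mia3* to 0.13, *Fn1* to 0.01 and *Mrc2* to 0.04 on the log2 scale. It also left 10 pathway genes lower, against 18, and 77.8% of all calls were then higher, against 47.0%. DESeq2 added *Col10a1* to the lower genes. Pathway genes higher were 14, or 8 with a log2 fold change of at least 1 and 9 at an adjusted p under 0.01, and those lower were 18, or 4 and 8. Without 1 library they were 10 to 15 higher and 11 to 22 lower, the lowest count of each falling without ft/ftMyD88-/- replicate 4.

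Without 1 library, the log2 fold change spanned 0 in genes that were not called: *Col5a2* (-0.29 to 0.02), *Col5a3* (-0.13 to 0.12), *Col11a2* (-0.35 to 0.07), *Col14a1* (-0.25 to 0.09), *Col19a1* (-0.24 to 1.01), *Col6a3* (-0.06 to 0.25), *Col26a1* (-0.24 to 0.30, 0.00 with all libraries), *Serpinh1* (-0.22 to 0.05), *Mia3* (-0.11 to 0.03), *Eln* (-0.39 to 0.06), *Mfap4* (-0.40 to 0.14), *Ddr2* (-0.05 to 0.13), *Mrc2* (-0.31 to 0.01) and *Mmp14* (-0.01 to 0.20). Losses of calls without 1 library are given with *Col20a1*, *Col4a6* and *Col23a1* in the results, and gains were *Col5a1*, *Col6a6* and *Col15a1* without ft/ft replicate 1, *Col13a1* without ft/ft replicate 3 and *Col18a1* without ft/ftMyD88-/- replicate 3. The causes were not tested.

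Replicate numbers are shared by the groups but nothing says that they pair the samples. Deviations of same-numbered libraries correlated at -0.146, 0.0251, 0.0146 and -0.0169, and 1 of 4 numbers correlated best with its own partner. With the replicate number as a block, 4 collagen genes were higher and 11 lower, *Col5a1* being added, and 14 and 21 pathway genes were higher and lower. The coding length of the RefSeq protein was not run as an alternative length, and the GENCODE coding length was used. *Col6a4*, *Col10a1* and *Col19a1* have too few counts for their folds to be read.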
